A study of Mus musculus with 6 samples.

Results

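Interleukins and chemokines are the secreted signals by which cells of the immune system, and several cells of the developing brain, call and instruct each other, and their receptors were measured beside them. The set was chosen by name: every probe whose gene symbol begins with Il, Ccl, Cxcl, Ccr or Cxcr followed by a number, leaving out Il17rd, for which the array has 0 probes of that single symbol. The rule found 114 probes of 107 genes among 21766 probes, where 16632 carry 1 gene symbol and name 15063 genes. They comprise 22 probes of CC chemokines, 11 of CXC chemokines, 15 of chemokine receptors, 30 of interleukin ligands, 32 of interleukin receptor chains and 4 of antagonists and other proteins (Il1rn, Il1f5, Il18bp and Il4i1). Of the 114 probes, 102 of 96 genes had enough values to be tested, against 17476 of all probes.

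Chemokines are small proteins that set up gradients and act through receptors coupled to G proteins, so that cells with the receptor move along the gradient. In the embryonic cortex the best known pair is Cxcl12, made by the meninges and by progenitors, and its receptor Cxcr4 on Cajal-Retzius cells and on interneurons that migrate in from the ventral telencephalon. Interleukins act through paired receptor chains, many of which are shared between ligands, and signal to the nucleus mainly through Jak and Stat proteins or, for the Il1 family and Il17, through adaptors that activate NF-kB.

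The arrays compared E12.5 embryos in which the active copy of Mest (Peg1) was disrupted with wild-type embryos. Mest is an imprinted gene read from the father's copy, and the 6 mutants had inherited from the father a LacZ-targeted allele without exons 3 to 8, which is present in every cell and is not limited to the cortex. The other group was 3 wild-type cortices. Strain, sex and any treatment are not stated in the labels used here. Each of 6 two-colour arrays held RNA of a single mutant cortex and RNA of a single wild-type cortex, with mutant RNA in the Cy5 dye on the arrays of mutants 3, 5 and 6 and in Cy3 on those of mutants 1, 4 and 7. Every wild-type cortex was assumed to serve 2 arrays, one in each dye; for mutant 3 the label gives a wild type that the design does not list. Values are log2 ratios, mutant over wild type, after each array was centred on its median, and they are listed for mutants 3, 5 and 6 and then for mutants 1, 4 and 7.

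Each array gave values for 16422 to 19564 of the 21766 probes. The Mest probe gave -1.36, -1.78 and -1.39, then -1.50, -2.07 and -1.44, lower in every mutant (fitted -1.59, standard error 0.13). The direction of the deposited ratios was read from this gene and the dye labels, so its sign is part of that reading, and the place of the probe in the gene was not looked up. The adjusted p of Mest in limma was 0.601 over 17476 probes. None of them passed 0.05, and 687 had an unadjusted p under 0.05. A ratio carries no level, so these arrays do not show whether a transcript was abundant or scarce, and in whole cortices fewer cells of a type and less RNA per cell cannot be told apart. The labelled tissue could likewise not be checked, as the ratios given for marker lists below do not show which tissue was taken.

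None of the 102 tested probes of interleukins, chemokines and receptors passed the adjusted threshold for genotype, against 0.0% of all tested probes. The smallest adjusted p among them was 0.901 (limma). At an unadjusted p under 0.05 there were 2, a share of 1.96% against 3.93% of all tested probes. They were Cxcr5, 1 probe higher in mutants against 1.6% of all, and Ccl9, 1 probe lower against 2.33% of all. The fitted ratios of the 102 probes ran from -1.25 to 0.92 with a median of 0.086, and 65 lay above 0 and 37 below, a share above 0 of 63.7% against 51.3% of all tested probes, whose median was 0.007. Without mutant 5 the median was 0.041, with 58 above 0 and 42 below, and without the arrays of the wild-type cortex it shared with mutant 4 it was 0.047. The quartiles were -0.04 and 0.20 for these probes against -0.14 and 0.13 for all. Without centring 89 lay above 0 and 13 below, and centred on the Gapdh control spots 88 and 14, where the share of all probes above 0 was 84.6% and 84.5% and their median moved to 0.26 and 0.265. The plot of fitted ratios by role shows most points close to 0, and 72 of the 102 lay within 0.25 of it. Ccl9 and Il5, 2 of 102, lay beyond 1 in size, against 3.5% of all tested probes.

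**Figure D1:**
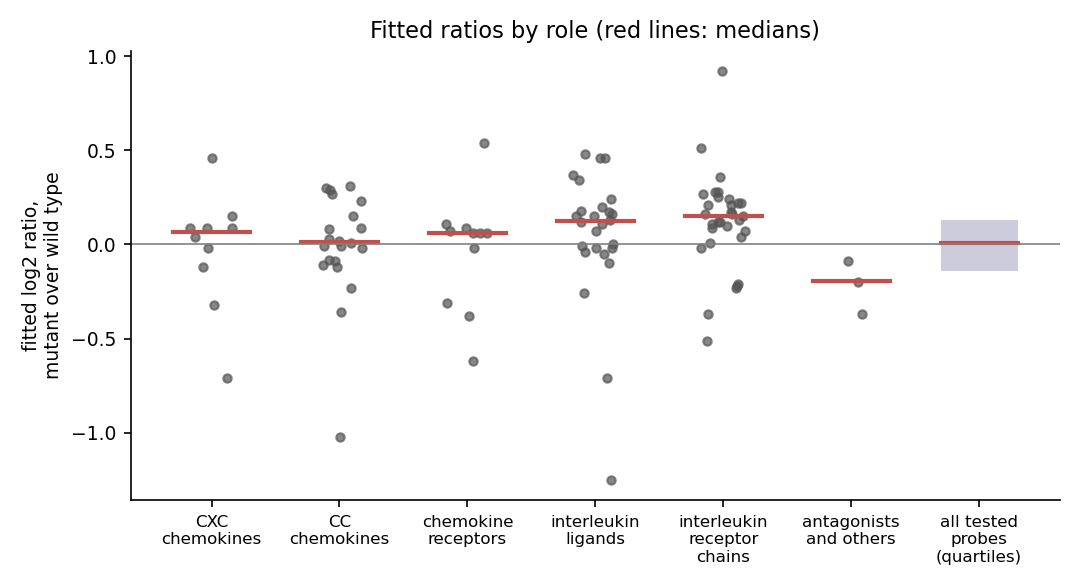
Fitted log2 ratio of mutant over wild type for each tested probe, grouped by role, where each point is a probe, red lines are medians and the shaded box spans the quartiles of all tested probes. Points spread on both sides of 0 in the ligand and chemokine receptor groups. Of 31 interleukin receptor chain probes 25 lie above 0 (80.6% against 51.3% of all tested probes).

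Cxcl12 and Cxcr4 were both measured on all 6 arrays, and neither differed from wild type beyond the spread between arrays. Cxcl12 gave 0.03, 0.30 and -0.24, then -0.07, 0.04 and 0.47, a mean of 0.09 ± 0.26 (SD, n = 6 arrays). Cxcr4 gave 0.37, -0.23 and 0.05, then -0.15, -0.28 and 0.12, a mean of -0.02 ± 0.25 (SD, n = 6 arrays). Both genes had mutants on either side of 0 in each dye orientation. The fitted ratio of Cxcl12 was 0.09 with a 95% confidence interval from -0.26 to 0.45, and that of Cxcr4 was -0.02 with an interval from -0.33 to 0.29 (limma, adjusted p = 0.914 and 0.978). Two-sided exact sign-flip permutation tests over the 6 arrays gave p = 0.406 for Cxcl12 and 0.844 for Cxcr4, where 6 arrays allow 0.0312 at the smallest and 3 independent wild types would allow 0.25. Ackr3, the second receptor of Cxcl12, which takes the chemokine up and clears it, gave -0.16, 0.21 and -0.01, then 0.03, 0.20 and 0.22. Its fitted ratio was 0.08 with an interval from -0.14 to 0.30 (limma, adjusted p = 0.902). Without the array of mutant 7 the fitted ratio of Cxcl12 was -0.021, and Cxcr4 lay above 0 without any 1 of mutants 1, 4, 5 and 6 (0.011 to 0.053), so that neither sign was settled.

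**Figure D2:**
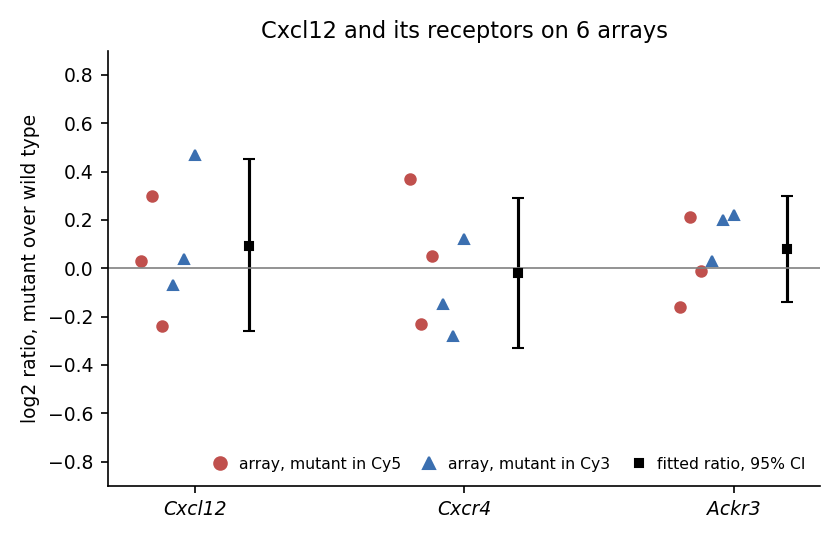
Log2 ratio of mutant over wild type on each of the 6 arrays for Cxcl12, Cxcr4 and Ackr3, with points marked by dye orientation and the fitted value with its 95% confidence interval. All 3 intervals cover 0.

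The promoters of this pair are shown at annotated starts, and whether the 2 measured transcripts begin there was not tested. RefSeq on GRCm38.p6 gave windows of 250 bases before to 50 after the start for 80 of the 107 genes. The motifs searched, on both strands, were the NF-kB consensus, TTCNNNGAA (a form of the Stat site) and TATAAA (the box near the start of many inducible genes). Capitals mark the matches, and no capitals means that these letters are not in the window.
Cxcl12 promoter, chr6:117168285-117168584, plus strand: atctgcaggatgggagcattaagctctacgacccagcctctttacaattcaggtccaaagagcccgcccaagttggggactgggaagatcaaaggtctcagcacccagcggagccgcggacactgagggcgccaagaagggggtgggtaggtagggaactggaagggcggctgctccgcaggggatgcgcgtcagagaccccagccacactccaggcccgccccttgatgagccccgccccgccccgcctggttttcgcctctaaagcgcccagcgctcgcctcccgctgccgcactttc
Cxcr4 promoter, chr1:128592250-128592549, minus strand: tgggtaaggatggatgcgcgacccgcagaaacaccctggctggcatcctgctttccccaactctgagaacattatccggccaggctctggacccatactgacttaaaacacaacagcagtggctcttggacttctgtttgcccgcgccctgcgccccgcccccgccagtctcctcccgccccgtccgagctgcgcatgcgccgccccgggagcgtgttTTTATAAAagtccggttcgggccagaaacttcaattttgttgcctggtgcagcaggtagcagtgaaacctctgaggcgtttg
The Cxcl12 window holds none of the 3 motifs. In that of Cxcr4 the 8 capital letters are TATAAA read on both strands, overlapping. TATAAA occurs in 21.6% of the 97 windows of these genes against 13.6% of all 32851 windows, and TTCNNNGAA in 10.3% against 8.3%.

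The CXC chemokines other than Cxcl12 mostly draw neutrophils, T cells and B cells. None passed the test, and of the 10 tested CXC probes, Cxcl12 included, 6 lay above 0 and 4 below (median 0.064). This side was not stable: without mutant 7 the class had 2 above and 7 below (median -0.043), and with the array of mutant 3 given a wild-type cortex of its own it had 4 above and 6 below (median -0.041). Cxcl10, an interferon-induced ligand of Cxcr3, gave 0.07, 0.03 and -0.05, then 0.22, 0.30 and 0.35. Its values were small and higher with the mutant in Cy3, without overlap (fitted 0.15, standard error 0.07, limma adjusted p = 0.901). Cxcl1, which draws neutrophils through Cxcr2, gave 0.58, 2.24 and -0.09, then -0.14, 0.29 and -0.14. Mutant 5 alone stood high, and the fitted ratio was 0.46 with a standard error of 0.34. Cxcl16, a ligand with a membrane anchor that binds Cxcr6, gave -0.47, -1.65 and 0.50, then -0.29, -1.09 and -1.27. It was below 0 in 5 of 6 mutants, with a fitted ratio of -0.71 and a standard error of 0.35. Cxcl5, another neutrophil ligand, stood low in mutant 7 alone (-1.43) and lay between -0.29 and 0.14 on the other arrays. Cxcl13, the B-cell attractant that binds Cxcr5, gave 0.22, 0.38 and -0.03, then -0.64, -0.05 and -0.58, so that its orientations did not overlap. Cxcl14, which had too few values to be tested, gave 1.10, 2.99 and 0.77 in mutants 3, 5 and 6 and -0.89 in mutant 1, with no value for mutants 4 and 7.

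The promoters of Cxcl10 and Cxcl1 are shown as examples of CXC windows with an NF-kB match, a description and not a shown site.
Cxcl10 promoter, chr5:92348840-92349139, minus strand: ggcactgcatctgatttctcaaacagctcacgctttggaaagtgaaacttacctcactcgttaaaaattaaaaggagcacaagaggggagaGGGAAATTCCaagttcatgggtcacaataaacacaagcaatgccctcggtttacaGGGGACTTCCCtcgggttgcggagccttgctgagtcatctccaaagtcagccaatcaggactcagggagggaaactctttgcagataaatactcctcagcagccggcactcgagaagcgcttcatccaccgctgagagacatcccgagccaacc
Cxcl1 promoter, chr5:90890995-90891294, plus strand: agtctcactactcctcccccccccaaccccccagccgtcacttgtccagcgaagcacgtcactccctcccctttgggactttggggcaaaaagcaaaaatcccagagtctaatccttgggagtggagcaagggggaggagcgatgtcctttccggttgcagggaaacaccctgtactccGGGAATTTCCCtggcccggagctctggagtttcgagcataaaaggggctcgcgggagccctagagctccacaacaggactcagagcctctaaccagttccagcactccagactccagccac
The capitals cover 3 NF-kB consensus matches in the Cxcl10 window and 2 in that of Cxcl1, where each run of 11 letters holds 2 that overlap by all but 1 base. The consensus occurs in 3 of 8 CXC windows, 4 of 17 CC windows and 3 of 13 of chemokine receptors. Interleukin receptor chains had it in 3 of 25, interleukin ligands in 2 of 27 (7.41%) and the antagonists and others in 0 of 7. All these genes together had it in 15 of 97 windows (15.5%), against 8.46% of all 32851 windows. The 16 tested probes of genes with a match had a median ratio of 0.106 (12 above 0, 4 below), against 0.104 for the 58 without (39 above, 19 below). For TATAAA the 18 probes with a match had a median of 0.011 (9 above, 9 below), against 0.123 for the 56 without (42 above, 14 below), and for TTCNNNGAA the medians were 0.093 for 8 probes with a match and 0.104 for 66 without. These are descriptions, with no test.

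The CC chemokines, which chiefly draw monocytes, macrophages and lymphocytes, were split evenly, with 11 of the 21 tested probes above 0 and 10 below (median 0.014). Without mutant 1 the median was -0.035, with 9 above and 11 below. Ccl9, a ligand of Ccr1, gave -1.01, -0.03 and 0.23 on the Cy5 arrays, then -2.0 and -1.67 in mutants 1 and 4. Its fitted ratio was -1.02 with a standard error of 0.24 (limma, unadjusted p = 0.0101, adjusted p = 0.901), and 2 of its 5 deposited values equal, to the third decimal, log2 ratios of whole numbers up to 10. At least 2 such values were found for 4 of the 102 tested probes of the set, 3.92% against 6.2% of all tested probes. The orientations of Ccl9 did not overlap, with means of -0.27 on the Cy5 and -1.84 on the Cy3 arrays. Its dye term was 0.75 (limma, unadjusted p = 0.0146). Ccl3, a macrophage inflammatory protein, gave -0.11, -0.56 and -0.54, then 1.26, 0.56 and 1.24. It changed sign with the dye and had a fitted ratio of 0.31 (standard error 0.14). Ccl28, a mucosal chemokine, gave 0.48, 0.33 and 0.01, then 0.11, 0.17 and 0.30. It was above 0 in all 6 mutants (fitted 0.23, standard error 0.11), 1 of 3 such probes in the whole set, a share of 2.94% against 2.44% of all tested probes. Ccl12, a monocyte ligand of Ccr2, had a fitted ratio of 0.27 and was above 0 in 5 mutants. Ccl2, the main monocyte attractant, gave -0.32, -0.41 and -0.09, then 0.19, -0.13 and 0.02. Ccl1, the ligand of Ccr8, was below 0 in 5 mutants with a fitted ratio of -0.23. The median of the class was -0.05, -0.11 and -0.09 on the Cy5 arrays against 0.11, 0.09 and 0.03 on the Cy3 arrays, and its orientations therefore did not overlap.

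Of the 15 chemokine receptor probes 11 could be tested, with 7 above 0 and 4 below (median 0.059). Without the arrays of the wild-type cortex taken as shared by mutants 3 and 1 the median was -0.018, with 4 above and 5 below. Cxcr5, the receptor of Cxcl13 on B cells, gave 1.32 and 1.38 in mutants 3 and 6 against 0.10 and -0.58 in mutants 1 and 4. Its fitted ratio was 0.54 (standard error 0.17, limma unadjusted p = 0.045, adjusted p = 0.901), on 4 arrays, of which 2 gave deposited values equal in the same way to log2 ratios of whole numbers. The orientations of Cxcr5 did not overlap, with means of 1.35 on the Cy5 and -0.24 on the Cy3 arrays. Its dye term was 0.77 (limma, unadjusted p = 0.0109). Ccr9, which directs thymocytes and gut lymphocytes to Ccl25, gave -0.43, -0.43 and -0.24, then -0.13, -0.07 and -0.96. It lay below 0 in all 6 mutants, as did 1 Il15 probe with values on 5 arrays, a share of 1.96% against 3.12% of all tested probes. Ccr1l1, a relative of Ccr1, was below 0 in 4 of 5 mutants (fitted -0.62, standard error 0.24). Cxcr3 gave 0.03, 2.99 and 0.19, then -0.36, -0.58 and -4.16, and its fitted ratio of -0.31 had a standard error of 0.74. Ccr8 and Cxcr2 were close to 0, at 0.11 and 0.09. The untested receptors were Ccr3, Ccr4, Ccr10 and Cxcr6.

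Interleukin ligands had 16 of 26 tested probes above 0 and 10 below, with a median of 0.125. Without mutant 5 the median was 0.049 (14 above, 11 below), without the wild-type cortex of mutants 5 and 4 it was 0.043, and without mutant 6 it was 0.153, with 17 of 19 above 0. Those 19 are the probes with values on all 6 arrays. With every array kept, 13 of them lay above 0 and 6 below (median 0.132). Il1f6 and Il1f8, members of the Il1 family that act in epithelia, showed the dye orientations apart in opposite senses. Il1f6 gave 0.71, 0.40 and 0.20, then -0.07, -0.03 and -0.15, whereas Il1f8 gave -0.05, -0.05 and -0.12, then 0.28, 0.25 and 0.56. Il16, a ligand of CD4 that draws T cells, had a fitted ratio of 0.34 with a standard error of 0.20. Il34, the second ligand of the Csf1 receptor and a survival factor for microglia, gave -0.55 and 0.46 in mutants 3 and 6 and -0.47 and 1.10 in mutants 1 and 4. No side was favoured, and its fitted ratio was 0.20 with a standard error of 0.37. Il18, which is released when inflammasomes are active, had a fitted ratio of -0.10. Il5, the eosinophil factor, had the lowest fitted ratio of all tested probes in the set, -1.25 with a standard error of 0.96, set mostly by -5.81 in mutant 1. Il33, an alarmin released from damaged cells, had 3 values of 0.26, -1.90 and 4.12 (mutants 3, 5 and 1) and could not be tested.

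Among the 5 role classes with at least 10 tested probes, the interleukin receptor chains had the highest share above 0 in the main setting. Of 31 tested probes 25 lay above 0 and 6 below (80.6% against 51.3% of all tested probes), with a median of 0.152. The 31 probes stand for 27 genes. With 1 value per gene 21 lay above 0 and 6 below (77.8% against 50.9% of all, median 0.134). No probe of the class passed the adjusted threshold, and 0 had an unadjusted p under 0.05, against 3.93% of all tested probes. The class median was 0.17, 0.24 and 0.12 on the Cy5 arrays and 0.13, 0.07 and 0.05 on the Cy3 arrays, above 0 on 6 of 6, with an SD of 0.07 over arrays. Without mutant 5 it was 0.09 and without the arrays of the wild-type cortex shared by mutants 5 and 4 it was 0.087, while the Cy3 arrays alone gave 0.065 with 18 of 29 above 0 (62.1%) against 48.6% of all probes. The order of the classes was lost there, where CC chemokines had 65.0% and both CXC chemokines and interleukin ligands 62.5%, and without mutant 6 the chains had 82.1% against 89.5% for interleukin ligands. Without mutant 6 fewer probes were tested, 28 of chains and 19 of ligands. Centred on the Gapdh control spots the chains had 90.3%, against 90.5% for CC chemokines and 84.5% of all probes.

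**Figure D3:**
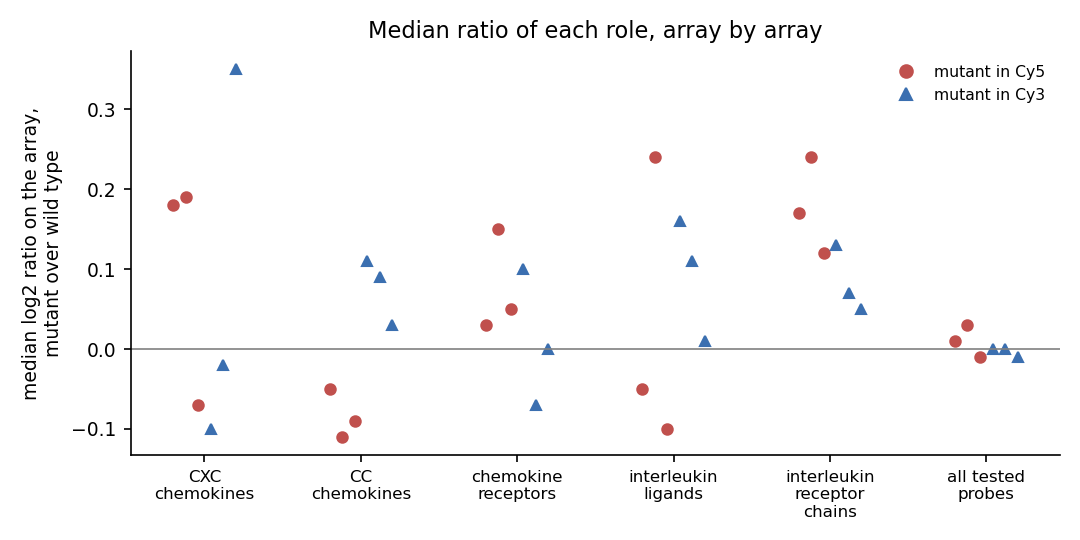
Median log2 ratio of mutant over wild type per role class on each array, with arrays in the order of the text, circles for Cy5 and triangles for Cy3. The interleukin receptor chains lie above 0 on all 6 arrays, and the CC chemokines below 0 on the Cy5 arrays and above 0 on the Cy3 arrays.

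Il21r, which binds a cytokine of T and B cell help, gave 0.41, 0.38 and 0.05, then 0.28, 0.11 and 0.12. Il12rb1, shared by the receptors of Il12 and Il23, gave 0.43, 0.13 and -0.01, then 0.24, 0.29 and 0.27. Il6ra, the receptor chain that binds Il6 itself, gave 0.14, 0.31 and 0.07, then 0.14, 0.01 and 0.00. Il21r and Il6ra were above 0 on every array before rounding, with fitted ratios of 0.22 and 0.11, and that of Il12rb1 was 0.22, above 0 on 5 of 6 arrays. Il6st, which encodes the gp130 chain used by Il6, Il11, Lif and related cytokines, gave 0.47, 1.18 and 0.81, then -0.33, -0.25 and 0.30 on its first probe. The orientations did not overlap, and the fitted ratio was 0.36 with a 95% confidence interval from -0.03 to 0.76 (limma, adjusted p = 0.901). A second Il6st probe, with values on 4 arrays, gave 1.56 and 0.49 in mutants 3 and 6 against -0.75 and -0.79 in mutants 4 and 7 (fitted 0.16, standard error 0.24). Il2rb and Il10ra lay below 0, at -0.37 and -0.22, each with a standard error of at least 0.20. The receptor chain Il11ra2 had the highest fitted ratio of the set, 0.92, with a standard error of 0.81, and a value of 4.73 in mutant 5.

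Among the 5 genes with several probes, the probes did not always side together. The 3 tested Il2ra probes, for the high-affinity chain of the Il2 receptor, lay at 0.25, 0.28 and 0.16, all above 0. The Il10rb probes lay at 0.07 and -0.51, and the Il15 probes at -0.02 and -0.71, the second of each with a standard error of 0.60 and 0.56. The 2 probes named Ccl21a lay at -0.09 and 0.30. In mouse Ccl21a, Ccl21c, Ccl27a and Il11ra2 lie among near-identical copies, so which copy these probes read is uncertain.

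The antagonists and other proteins were few. Il1rn, the antagonist of Il1, lay at -0.20, and Il18bp, which binds and blocks Il18, lay at -0.37. Il4i1, an amino acid oxidase induced by Il4, gave -1.51, -1.11 and -1.12 on the Cy5 arrays, then 1.33, 0.66 and 1.20 on the Cy3 arrays. It was the 1 member probe past the adjusted threshold for the dye term (limma, adjusted p = 0.0481), and was singled out after its values were seen. Its fitted ratio for genotype was -0.09. Over the whole set 33 probes had orientations that did not overlap, 32.4% against 29.7% of all tested probes, and 1 of 102 passed for dye against 0.269% of all. At an unadjusted p under 0.05 the dye term had 22 of the 102, where all tested probes had 20.0%. The plot of the 2 orientations shows these as points away from the diagonal.

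**Figure D4:**
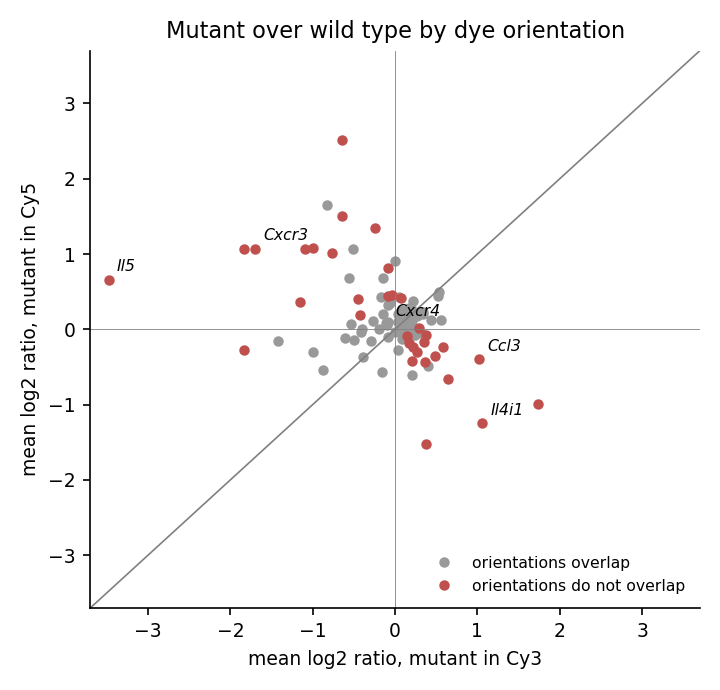
Mean log2 ratio of mutant over wild type per probe on arrays with the mutant in Cy3 (x axis) and in Cy5 (y axis), with equal means on the diagonal and red points for orientations that do not overlap. Il4i1 lies far from the diagonal, with a mean below 0 in Cy5 and above 0 in Cy3.

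Of the 114 probes 84 had values on all 6 arrays, 73.7% against 62.2% of all probes, and 8.48% of their values were missing against 15.9%. Among the 16632 probes with 1 gene symbol, as all members have, 65.9% were complete and 14.1% of values were missing. The 12 probes that could not be tested were those of Ccl8, Cxcl14, Ccr3, Ccr4, Ccr10, Cxcr6, Il1f5, Il11, Il21, Il31 and Il33 and 1 of 4 Il2ra probes. Values beyond 2 in size made up 19 of 589 (3.23%) against 5.35% of all values, 7 of them from mutant 5 and 5 from mutant 7. Those arrays had many large values over all probes too: the share beyond 2 was 7.87% against 9.4% of all values in mutant 5, and 5.21% against 6.63% in mutant 7. Spread over arrays was like that of all tested probes, with a median SD of 0.41 for both, and 0.37 for tested probes with 1 gene symbol.

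**Figure D5:**
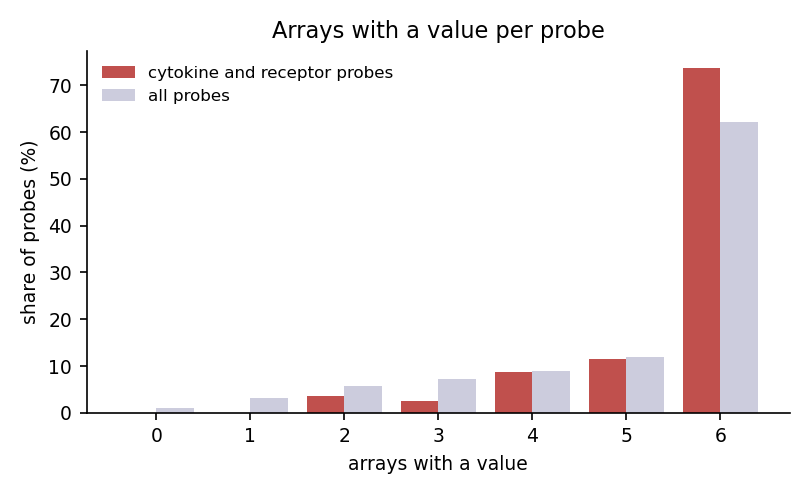
Share of probes with values on 0 to 6 arrays, for the 114 probes of interleukins, chemokines and receptors and for all 21766 probes. The first group has the higher share on all 6 arrays, 73.7% against 62.2%.

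Neighbouring members whose starts lie within 1 Mb formed 8 clusters of at least 4 genes, with 3 to 5 tested probes each. The Il1 receptor cluster from Il1r2 to Il18rap had 4 of 5 tested probes above 0, Il4 with Il13, Il5 and Il3 had 3 of 4, and the Ccl27a, Il11ra2, Ccl19 and Ccl21a cluster had 3 of 5. The Il1f8, Il1f6, Il1f5 and Il1rn cluster had 2 of 3, and the Cxcl5 to Cxcl2 and Ccr9 to Ccr2 clusters had 2 of 4 each. The cluster from Ccl2 to Ccl1 had 2 of 5, and that from Ccl5 to Ccl4 had 1 of 5. With so few probes each, differences between clusters were not tested.

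Lists of proteins that work with these cytokines had 0 probes past the adjusted threshold. Of all tested probes 51.3% lay above 0. The share was 65.9% for cytokine signal transduction, 42.9% for gp130 partners and 35.0% for chemokine receptor signalling. It was 63.6% for chemokine relatives and 62.5% for common receptor partners. Of the cytokine signal transduction list (Jak, Stat, Socs and NF-kB genes) 29 of 44 tested probes lay above 0 and 15 below. The median was 0.035, and 1 probe, 2.27% against 3.93% of all tested probes, had an unadjusted p under 0.05. This was Pias2, a SUMO ligase that restrains Stat proteins, at 0.82, 0.44 and 0.19, then 0.42, 0.41 and 1.62, above 0 in all 6 mutants (fitted 0.65, limma unadjusted p = 0.0416). Traf6, which relays Il1 signals, had a fitted ratio of 0.37. Of the gp130 partners 3 of 7 lay above 0 and 4 below. An unadjusted p under 0.05 was found for 2, 28.6% against 3.93% of all tested probes, both with fitted ratios below 0. Clcf1, a ligand of the Cntf receptor, gave -0.29, -0.43 and -0.09, then -0.08, -0.24 and -0.48 (fitted -0.27, limma unadjusted p = 0.0486). Osmr, the oncostatin M receptor, gave -0.02, 0.85 and -0.98 on the Cy5 arrays, then -1.61 and -1.63 in mutants 1 and 4. Its fitted ratio of -0.89 (limma unadjusted p = 0.0445) came with a mean of -0.05 on the Cy5 and -1.62 on the Cy3 arrays, and its dye term had an unadjusted p of 0.0284. Of the chemokine receptor signalling genes 7 of 20 lay above 0 and 13 below. Their median was -0.031, and 0 had an unadjusted p under 0.05. Gnai2 and Gng2, which carry receptor signals to the cell interior, lay at -0.18 and -0.17. Of chemokine relatives outside the set 7 of 11 lay above 0, with the platelet chemokine Ppbp at -0.38 and the decoy receptor Ackr2 at 0.19. The common receptor partners and other cytokines had 10 of 16 above 0, with Csf3 at -0.37 and Flt3l at 0.20.

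Markers of the cells that could carry these transcripts were measured too. The array medians ran from -0.12 to 0.06 for Cajal-Retzius genes, from -0.06 to 0.16 for interneuron genes, from -0.16 to 0.15 for macrophage and microglia genes, from -0.20 to 0.15 for lymphocyte genes and from -0.13 to 0.08 for meningeal genes. Endothelial genes ran from -0.24 to 0.19. Erythroid genes had a median of -0.250 over 7 probes, below the array median on all 6 arrays (-0.61 to -0.12). Of the 7, 4 had an unadjusted p under 0.05 (57.1% against 3.93% of all tested probes). The 7 probes are not all independent, as Hba-a1 and an Hba-x probe gave the same values on most arrays. The 4 include another Hba-x probe and neither of this pair. The part of the erythroid shift in the ratios above was not tested.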

How the data were processed

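Each array compared RNA of a single mutant cortex with that of a single wild-type cortex. The deposited values are log2 ratios, with scale, direction and normalization not given in the sources used here. Trizol was used to extract RNA, per the labels' protocols. The values were taken as log2 of Cy5/Cy3 from the dye labels and the Mest probe, turned to mutant over wild type, and centred on the median of each array's 21766 probes (232 Gapdh control spots left out). The ceiling value 16.61, log2 of 100000, was set missing (590 values, 1 of a member). Spot intensities were not used here. The number of arrays and of wild-type cortices limits the precision.

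The fit used limma 3.58.1 (lmFit, eBayes; R 4.3.3) on probes with values on at least 4 arrays, 2 per orientation, with a dye term and the shared wild-type cortex as random block (duplicateCorrelation 0.246). The array labelled wild type 1 was put with wild type 2. P-values were adjusted by Benjamini-Hochberg over 17476 probes at 0.05. Mutants are separate embryos, but p-values also carry hybridisation error. On 3 simulated datasets of 17476 probes, 38 of 100 probes changed by log2 1 and 73.7 of 100 changed by log2 2 were called on average, with 6.7 false calls. Each dataset held both groups of changed probes, which relaxes the adjusted threshold, and normal noise with the fitted variances. On the real arrays 0 probes passed, and Mest, at -1.59, did not (limma, adjusted p = 0.601). The simulated rates therefore do not carry over to these arrays.

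Probes were named from the platform annotation through Entrez identifiers (113 of 114 matched to GRCm38.p6). The members and lists were chosen with earlier results of these data known. Text names Mest, Cxcl12, Cxcr4, Ackr3, Il6st, Il1rapl1 (0 probes), Il34, Il33 and Cxcl14, up to 3 probes per direction and role class by smallest p, and 2 per pathway list; Ccl21a, Il6ra, Il11ra2, Il2ra, Il10rb, the antagonists and Il4i1 were added after their values were seen.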

Additional observations from a re-analysis of the deposited data

Results flagged for a closer look

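Of 36 probes examined, 3 had an array far from the others of the same probe by Dixon's ratio. Its limits are set for about 1 in 20 probes when values are normally distributed. The share over all tested probes was not counted, so whether 3 of 36 is many for these arrays was not tested. Cxcl1 stood at 2.24 in mutant 5, where the other 5 mutants lay between -0.14 and 0.58. Cxcl5 stood at -1.43 in mutant 7, with the others between -0.29 and 0.14. The Il15 probe with values on 5 arrays stood at -3.24 in mutant 7, with the others between -0.84 and -0.10. Over all probes the arrays of mutants 5 and 7 also had the highest shares of values beyond 2 in size, 9.4% and 6.63%, against 7.87% and 5.21% of the members' values there.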

How the results depend on the processing

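In all 25 alternatives 0 member probes and 0 of all probes passed the adjusted threshold for genotype. Of 709 values of the 31 other named probes, 22 in 11 probes had the opposite sign. Leaving out each array in turn, Cxcl12 ranged from -0.021 to 0.198 and Cxcr4 from -0.099 to 0.053, and Cxcr4 was 0.233 without centring, 0.241 centred on Gapdh control spots, 0.064 on the Cy5 arrays and 0.098 without the arrays of wild type 8. Without centring and on Gapdh, where the median of all probes moved to 0.26 and 0.265, the member median was 0.337 and 0.346, that of CC chemokines 0.266 and 0.275, of CXC chemokines 0.304 and 0.270, of chemokine receptors 0.311 and 0.319, of interleukin ligands 0.377 and 0.380 and of interleukin receptor chains 0.404 and 0.409; Ccl1 was 0.027 and 0.035, Ccl2 0.129 and 0.137, Cxcl13 0.136 and 0.145, Il10ra 0.030 and 0.038 and Il18 0.156 and 0.165. On the Cy3 arrays CC chemokines had 0.148, chemokine receptors -0.246, interleukin receptor chains 0.065, Ccl2 0.027, Il1f6 -0.082 and the first Il6st probe -0.093. Fits on 1 orientation needed values on all 3 of its arrays, so the probes differed from the main setting. On the Cy3 arrays 12 chemokine receptor probes were tested, with Ccr10 and Cxcr6 added and Cxcr5 left out. For the 11 of the main setting the medians on the Cy3 arrays were 0.10, -0.07 and -0.0. On the Cy5 arrays CC chemokines had -0.089, Ccl3 -0.404, Cxcl13 0.191, Cxcr3 1.071, Il18 0.002 and Il1f8 -0.075. Cxcr3 ranged from -0.795 to 0.202 over arrays left out and was 0.521 without the arrays of wild type 9, and Il2rb was 0.124 without those of wild type 8. The members at an unadjusted p under 0.05, 2 in the main setting, were 9 without the block (8.82% against 6.4% of all probes), 5 with the array labelled wild type 1 as a cortex of its own (4.9% against 3.91%), 8 without the dye term (7.84% against 6.14%), 31 on Gapdh (30.4% against 15.8% of all probes), 1 with values on at least 3 arrays, 0 without probes of whole-number ratios, 6 without variance moderation (5.88% against 5.16%), 4 with 1 value per gene (4.17% against 3.92%), 6 on the Cy5 arrays (6.67% against 8.71%) and 13 on the Cy3 arrays (13.5% against 10.8%), 0 without the arrays of wild type 2 and 0 to 5 over arrays left out. The 1 member called for dye was 0 without the block, on Gapdh, with values on at least 3 arrays, with the ceiling kept, with robust eBayes, without moderation, without the arrays of each wild type and over all arrays left out, and 3 without centring. Without a wild type's arrays the block correlation could not be estimated and 0.246 was used. Each ratio already pairs a mutant with a wild type, and the block pairs the arrays that share a wild type. Leaving out each array, the member median ranged from 0.041 to 0.116, and the medians from -0.035 to 0.046 for CC chemokines, -0.043 to 0.131 for CXC chemokines, 0.023 to 0.075 for chemokine receptors, 0.049 to 0.153 for interleukin ligands and 0.09 to 0.191 for interleukin receptor chains. The causes were not tested. Brightness could not be used, so dim and saturated spots were not told apart.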
